A study of Mus musculus with 2 samples.

Results

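Natural killer (NK) cells and cytotoxic T cells kill target cells by releasing granules, and NK cells choose targets through activating and inhibitory surface receptors. Here 10 mouse genes were read in splenocytes, 6 for NK receptors (Ncr1, Klrd1, Klrk1, Klrb1c, Klre1 and Klrg1) and 4 for granule proteins (Gzma, Gzmb, Prf1 and Nkg7). They were measured by every probe set, the group of short probes that a GeneChip uses to read a transcript, to which the platform annotation gives that symbol alone. This held for 8 of the 10 genes, with 9 of the 20380 probe sets that have exactly 1 symbol. Klre1 had no such probe set, and the probe set of Klrb1c (NK1.1, the classic NK marker) is shared with a second gene, so neither is reported. The GPI-immunized group consisted of DBA/1 males aged 6 to 8 weeks and injected intradermally with 300 μg of GPI-GST, human glucose-6-phosphate isomerase fused to glutathione S-transferase, an antigen that induces arthritis. The control-immunized group consisted of mice of the same strain, sex and age given 100 μg of GST. Both antigens were emulsified in complete Freund's adjuvant, which by itself stimulates immune cells, so the control is not an unimmunized spleen. Spleens of 3 mice per group were taken on day 10, and RNA of each group was hybridized to 1 Affymetrix mouse GeneChip. The sources used here do not say whether the RNA of the 3 mice was pooled. No group had replicate arrays, so no test was possible, and every ratio (GPI-immunized over control-immunized signal) describes these arrays.

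The receptors recognize different features of target cells. NKp46 (Ncr1) is an activating receptor of NK cells and related innate lymphoid cells. NKG2D (Klrk1) binds stress-induced ligands, CD94 (Klrd1) pairs with NKG2 chains to read the nonclassical MHC molecule Qa-1, and KLRG1 (Klrg1) is an inhibitory receptor of mature NK cells and effector T cells. The granule genes encode the serine proteases granzyme A and granzyme B, the pore-forming protein perforin (Prf1) that lets them into the target, and the granule membrane protein Nkg7. All of these except Ncr1 are also well known from CD8 T cells. A whole-spleen array cannot assign a signal to a cell type, and fewer cells of a type and less RNA per cell cannot be told apart.

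Signals of all 4 measured receptors were lower in GPI-immunized than in control-immunized splenocytes, while those of the granule genes lay on both sides. Klrd1 stood lowest, with signals of 150.4 in GPI-immunized and 266.2 in control-immunized splenocytes, a ratio of 0.565. Of the 6961 genes whose higher signal reached 50.2, the 50th percentile of all signals, 0.963% had a lower ratio than Klrd1, which lay outside the central 95% of these genes (0.643 to 1.91). Klrg1 had signals of 54.3 in GPI-immunized and 79.4 in control-immunized splenocytes, a ratio of 0.684. For this gene 4.12% of genes had a lower ratio, and it lay inside the central 95%. Klrk1 had signals of 43.6 in GPI-immunized and 56.9 in control-immunized splenocytes, a ratio of 0.766. Its GPI-immunized signal was under the limit of 50.2, so the gene was counted through its control signal alone. Ncr1, of these receptors the one most closely tied to NK cells, had signals of 108.1 in GPI-immunized and 127.1 in control-immunized splenocytes, a ratio of 0.851. Of all counted genes, 18.1% had a lower ratio than Ncr1. Every receptor signal was above 14.1, the highest signal among 15 probe sets for Bacillus transcripts that mouse RNA lacks.

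**Figure D1:**
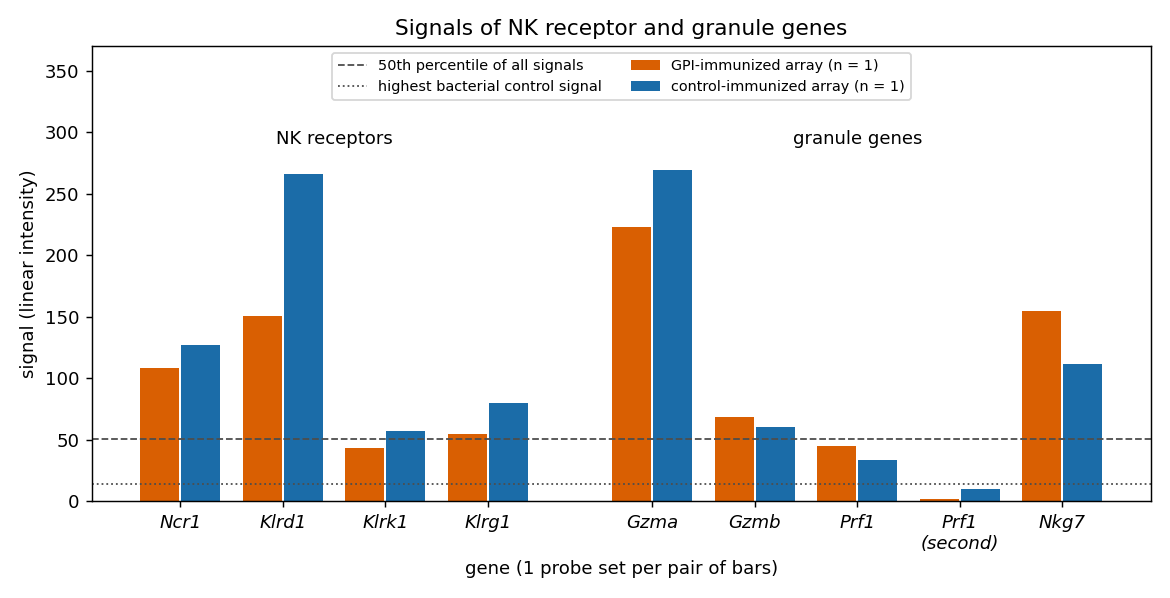
Signal (linear intensity, vertical axis) of each probe set of the measured genes on the GPI-immunized array (orange) and the control-immunized array (blue), 1 array each, with the 50th percentile of all signals (50.2, dashed) and the highest bacterial control (14.1, dotted). The orange bar is the shorter of the pair for all 4 receptors and for Gzma, and the taller for Gzmb, Nkg7 and the brighter Prf1 probe set.

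The only error measure at hand was the spread of log2 ratios between probe sets of the same gene, whose SD per probe set was 0.28 (1693 genes with a pair of probe sets reaching the limit), a factor of 1.22. It lies within these hybridizations and holds no difference between mice. On the log2 scale the ratio of Klrd1 was -0.82 and that of Klrg1 -0.55, both larger in size than this SD, and that of Klrk1 was -0.38. The log2 ratio of Ncr1, -0.23, was smaller than the SD. The median over the 4 measured receptors was -0.47, against 0.06 over all 6961 genes. None of the 4 receptors was at least 2-fold lower, where 0.445% of all genes were, and none was at least 2-fold higher, where 2.23% were. Ratios below 1 were found for 4 of 4 receptors and for 42.4% of all genes, a share that was 51.6% to 54.9% under the 3 other scalings, with 4 of 4 receptors below 1 in each. On the deposited scale Klrd1 was the only receptor at least 1.5-fold lower, as were 3.23% of all genes, and under each of 3 other scalings Klrg1 was too. The share of all genes at 1.5-fold under those scalings was not counted, so the 3.23% does not stand beside the call of Klrg1.

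Sequences before the start sites were examined for short motifs of factors that act in lymphocytes. RUNX factors are known regulators of NK cells and CD8 T cells and bind TGTGGT. The sequences are from the RefSeq promoter table of mouse build GRCm38.p6, in which Klrd1 and Klrg1 had no entry. For Ncr1 (chr7:4337465-4337714, plus strand) and Klrk1 (chr6:129623865-129624114, minus strand), the measured receptors with an entry, the 250 bases before the start site follow, written 5′ to 3′ with TGTGGT, or ACCACA for the opposite strand, in capitals.
Ncr1: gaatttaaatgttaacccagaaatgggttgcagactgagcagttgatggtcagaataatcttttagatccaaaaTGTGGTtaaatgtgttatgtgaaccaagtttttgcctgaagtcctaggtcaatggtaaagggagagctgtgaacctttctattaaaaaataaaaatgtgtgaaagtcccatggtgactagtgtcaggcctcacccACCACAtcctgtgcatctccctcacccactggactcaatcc
Klrk1: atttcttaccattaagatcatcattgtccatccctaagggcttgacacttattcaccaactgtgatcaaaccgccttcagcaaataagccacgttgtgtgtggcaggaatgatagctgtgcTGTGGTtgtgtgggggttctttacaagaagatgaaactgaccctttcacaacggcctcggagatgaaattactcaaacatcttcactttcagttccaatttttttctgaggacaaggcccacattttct

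Among the granule genes, Gzma had a ratio below 1 and Gzmb and Nkg7 had ratios above it. Gzma, a granzyme with trypsin-like specificity, had signals of 222.6 in GPI-immunized and 268.8 in control-immunized splenocytes, a ratio of 0.828 (15.4% of genes had a lower ratio). Gzmb, the caspase-activating granzyme, had signals of 68.4 in GPI-immunized and 60.5 in control-immunized splenocytes, a ratio of 1.13. Nkg7, which takes part in granule release, had signals of 154.5 in GPI-immunized and 111.2 in control-immunized splenocytes, a ratio of 1.39. No other counted gene of either set had a higher one, and 89.0% of all genes had a lower ratio. On the log2 scale the ratios were -0.27 for Gzma, 0.18 for Gzmb and 0.47 for Nkg7, and that of Nkg7 exceeded the SD between probe sets of 0.28. Gzma lay below this SD, but above the SD of 0.21 over probe sets with a mean signal of 200 or more, to which it belongs. Prf1 was dim. Its brighter probe set had signals of 45.2 in GPI-immunized and 33.1 in control-immunized splenocytes, both under 50.2, a ratio of 1.37. The second Prf1 probe set had signals of 1.7 in GPI-immunized and 9.5 in control-immunized splenocytes, neither above the bacterial controls, and is given no ratio. The spread between probe sets was wider for such dim ones (SD 0.89 on the log2 scale over 351 genes), and the perforin transcript was therefore not measured closely enough for a direction.

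Of the 3 granule genes that reached the limit, none was at least 2-fold higher or lower, 2 had ratios above 1 (57.5% of all genes on the deposited scale, and fewer than were below 1 under the 3 other scalings) and 1 below. Their median log2 ratio was 0.18, and 0.31 with the brighter Prf1 probe set included. The receptor and granule ranges met at Ncr1 (0.851) and Gzma (0.828), so the sets were not fully apart. Summed over the probe sets standing for each gene, receptor signals came to 356.4 in GPI-immunized and 529.6 in control-immunized splenocytes, a ratio of 0.673. Granule signals summed to 490.7 in GPI-immunized and 473.6 in control-immunized splenocytes, a ratio of 1.04. The difference between receptors and granule genes could not be tested with 1 array per group.

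**Figure D2:**
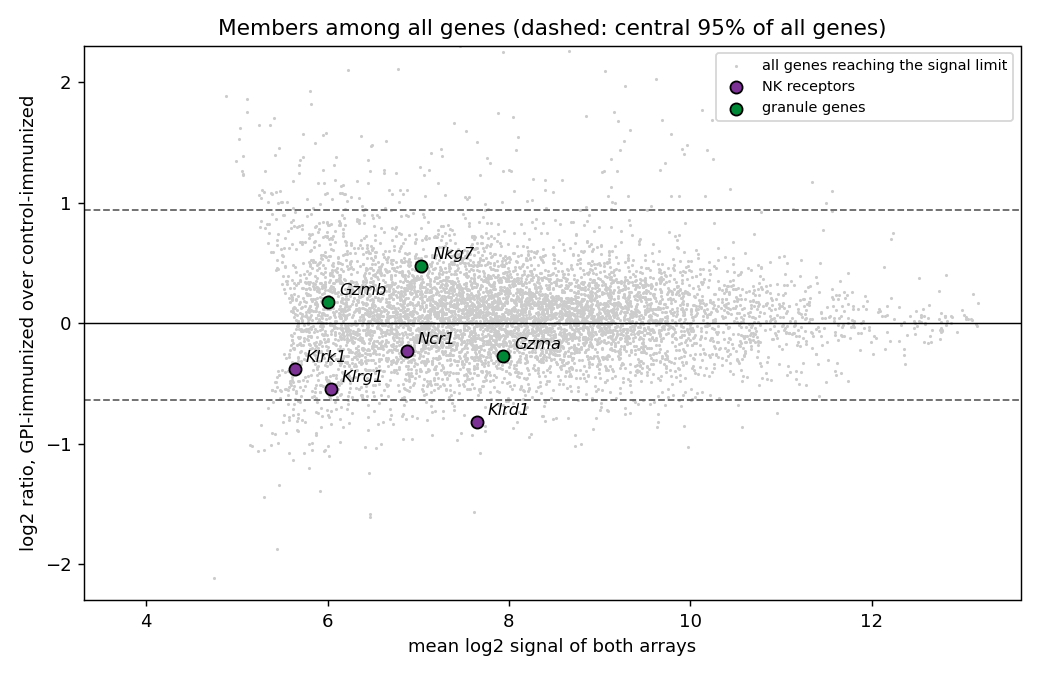
Log2 ratio (GPI-immunized over control-immunized) (vertical axis) against the mean log2 signal of both arrays (horizontal axis) for the 6961 genes reaching the limit (grey, 1 point per gene; 8 lie beyond the vertical axis), with receptors in purple and granule genes in green. Klrd1 alone lies below the lower dashed line, which with the upper bounds the central 95% of all genes, and Nkg7 is the highest member.

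The granule gene windows shown are those of a gene on each side of a ratio of 1 and of Gzmb between them. They are Gzma (chr13:113100982-113101231, minus strand), Gzmb (chr14:56262335-56262584, minus strand) and Nkg7 (chr7:43436888-43437137, plus strand), with the same letters in capitals.
Gzma: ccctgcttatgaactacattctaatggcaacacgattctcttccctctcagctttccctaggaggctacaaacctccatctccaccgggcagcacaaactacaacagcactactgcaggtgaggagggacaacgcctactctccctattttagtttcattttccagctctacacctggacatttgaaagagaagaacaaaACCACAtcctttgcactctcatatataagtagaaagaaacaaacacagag
Gzmb: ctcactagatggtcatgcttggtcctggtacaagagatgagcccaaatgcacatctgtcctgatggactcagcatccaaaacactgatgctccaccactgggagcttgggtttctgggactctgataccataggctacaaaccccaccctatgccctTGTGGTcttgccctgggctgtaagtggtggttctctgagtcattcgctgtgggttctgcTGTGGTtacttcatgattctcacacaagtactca
Nkg7: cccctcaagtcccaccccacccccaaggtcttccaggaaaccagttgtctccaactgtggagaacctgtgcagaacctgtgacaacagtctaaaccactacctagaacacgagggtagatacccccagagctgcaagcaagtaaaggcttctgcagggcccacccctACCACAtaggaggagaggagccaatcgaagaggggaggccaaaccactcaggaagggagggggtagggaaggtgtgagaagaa

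RefSeq windows were found for 8 of the 10 genes, including Klrb1c and Klre1, which have no signal of their own here. All 8 held TGTGGT or its complement, against 15.9% of the 27025 genes with a window of the same length. Ncr1 and Gzmb held a pair of matches each. Counting back from the start site, the match nearest to it began at -34 in Gzmb, -41 in Ncr1, -50 in Gzma, -83 in Nkg7, -89 in Klrb1c, -129 in Klrk1, -130 in Prf1 and -229 in Klre1. Ncr1 and Klre1 each have a second, overlapping RefSeq window, and 9 of the 10 member windows held a match. The matches were no less common in granule genes than in receptors (4 of 4 with a window in each). Klrd1 and Klrg1 had no window, and Klrb1c and Klre1 no signal, so the measured receptors could not be compared with the granule genes in full. Among related lists, the letters were held by 6 of 8 other granzyme genes, 9 of 17 NK cytokine and cytokine receptor genes, 4 of 9 other NK surface genes, 5 of 20 other receptors of the NK gene complex, 3 of 14 genes of granule biogenesis and release, 3 of 15 adaptor and signalling genes, 1 of 10 NK transcription factors and 0 of 9 ligands. The letters were also found in 4 of 7 basophil and mast cell markers, 2 of 9 T cell markers, 1 of 9 B cell markers and 2 of 15 neutrophil markers. The other motifs searched on both strands were GGTGTG, the core bound by T-box factors such as T-bet and Eomes, in 1 of 8 members (Nkg7) and 18.3% of all genes, and AGGAAG, bound by ETS factors, in 4 of 8 members (Klrb1c, Prf1, Nkg7 and, in its second window alone, which is not plotted, Klre1) and 32.3% of all genes. GGTGTG and TGTGGT can overlap, and in these windows they did not. Mean GC content of all windows was 53.2%, and the member windows ranged from 38.4% (Klre1) to 58.8% (Prf1). A match of letters is a description of sequence and not a binding site, and the motifs were chosen with signals and sequences in view.

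**Figure D3:**
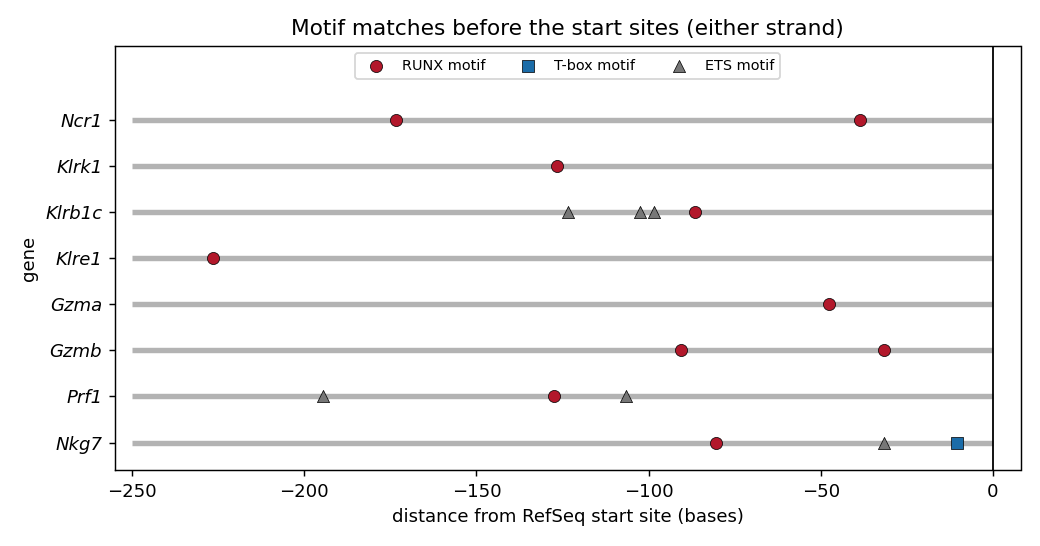
Positions of motif matches (horizontal axis, distance in bases from the RefSeq start site; negative values lie before it) in the 250-base windows of 8 genes (rows), with circles for RUNX, squares for T-box and triangles for ETS motifs. A RUNX match is present in every row, and Nkg7 holds the T-box match, at -13.

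NK receptors signal through partner chains, several of which myeloid cells use too. Hcst (DAP10), the adaptor of NKG2D, had signals of 173.9 in GPI-immunized and 163.3 in control-immunized splenocytes, a ratio of 1.06. Tyrobp (DAP12), an adaptor of NK and myeloid receptors, had signals of 2253.2 in GPI-immunized and 1582.2 in control-immunized splenocytes, a ratio of 1.42. Fcer1g, an Fc receptor chain that also serves NKp46, had a ratio of 1.60. Cd247 (CD3ζ), which T cells and NK cells share, had signals of 61.1 in GPI-immunized and 84.2 in control-immunized splenocytes, a ratio of 0.726. Its next brightest probe set, with both signals under the limit, had a ratio of 1.02. The T cell adaptor Lat had a ratio of 0.661. Of the 14 adaptor and signalling genes reaching the limit, none was 2-fold higher or lower, where 2.23% and 0.445% of all genes were. Ratios were above 1 for 6, against 57.5% of all genes, and below for 8, with a median log2 ratio of -0.06. After division by the median 4 were above and 10 below, where 54.9% of all genes were below. Probe sets of Zap70, a kinase of T and NK cells, disagreed, with a ratio of 1.03 for the brighter one and, for the second, signals of 32.0 in GPI-immunized and 73.2 in control-immunized splenocytes, a ratio of 0.437. CD94 binds its ligand together with an NKG2 chain. Klrc1 (NKG2A), the inhibitory one, had signals of 30.4 in GPI-immunized and 57.3 in control-immunized splenocytes, a ratio of 0.531, close to the 0.565 of Klrd1. Each of the other scalings (division by the array median, quantile and loess) put Klrc1 at least 2-fold lower. Over all genes this held for 47 of 6959, 47 of 6959 and 43 of 6961, in that order. Klrc1 was counted through its control signal alone, the other signal being under the limit. Its second probe set had signals of 23.2 in GPI-immunized and 21.1 in control-immunized splenocytes, a ratio of 1.10, so the probe sets disagreed. The activating Klrc2 (NKG2C) had signals of 1.3 in GPI-immunized and 9.6 in control-immunized splenocytes, neither above the bacterial controls.

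The remaining receptors of the NK gene complex were mostly dim. Of 33 listed genes 13 were measured, and 2 of these reached the limit, Klrc1 and Klra17. Klra17 (Ly49Q), a Ly49 family member found on myeloid and plasmacytoid dendritic cells, had signals of 167.1 in GPI-immunized and 120.1 in control-immunized splenocytes, a ratio of 1.39. Ly49 genes differ in number and sequence between mouse strains and resemble each other closely, so their probe sets are uncertain in DBA/1 mice. Of 8 other surface genes of NK cells reaching the limit, 5 had ratios above 1, against 57.5% of all genes, and 3 below. At least 2-fold higher was 1 of the 8, where 2.23% of all genes were. That gene was Fcgr3 (CD16), which neutrophils and macrophages also carry, with signals of 581.1 in GPI-immunized and 254.5 in control-immunized splenocytes, a ratio of 2.28. Slamf7 had a ratio of 1.63, and Cd244a (2B4) had one of 1.43 from its brighter probe set and 1.48 from the other. Cd96, a receptor of NK cells and T cells, had signals of 46.1 in GPI-immunized and 70.6 in control-immunized splenocytes, a ratio of 0.653. The GPI-immunized signal of Cd96 and the control signal of Slamf7 were under the limit, so each gene was counted through its other signal alone. The median log2 ratio of these 8 genes was 0.02, and it lay between -0.08 and -0.06 under the 3 other scalings, so no direction is given for the list.

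Other granzymes were at background. All 8 were measured, none reached the limit, and 7 had both signals at or under the highest bacterial control. The exception, Gzmm, had signals of 19.3 in GPI-immunized and 31.6 in control-immunized splenocytes. Of 12 genes of granule biogenesis and release reaching the limit, none was 2-fold higher or lower, where 2.23% and 0.445% of all genes were. Ratios were above 1 for 7, against 57.5% of all genes, and below for 5, with a median log2 ratio of 0.12. Lamp2, a lysosomal membrane protein of many cells, had the highest, at 1.66. Ctsc, the protease that activates granzymes and neutrophil proteases, had signals of 1557.3 in GPI-immunized and 1259.0 in control-immunized splenocytes, a ratio of 1.24. Srgn (serglycin), the proteoglycan that packs granzymes, had a ratio of 1.08. Serpinb9, the inhibitor of granzyme B in mice and humans, had signals of 65.7 in GPI-immunized and 90.3 in control-immunized splenocytes, a ratio of 0.728.

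Of 8 transcription factors that guide NK and effector T cells and reached the limit, 6 had ratios below 1, against 42.4% of all genes. Under the 3 other scalings 6 of 7 or 8 were below 1, against 51.6% to 54.9% of all genes. On the deposited scale none was 2-fold lower, and the median log2 ratio was -0.21. Whether the list departs from all genes was not tested. Tbx21 (T-bet) had signals of 49.5 in GPI-immunized and 73.8 in control-immunized splenocytes, a ratio of 0.671, and was counted through its control signal alone. Eomes had signals of 57.4 in GPI-immunized and 65.4 in control-immunized splenocytes, a ratio of 0.878, and its second probe set had a ratio of 0.558. Ets1, which T and B cells also express, had a ratio of 0.596, and Irf2 had one of 0.743. Nfil3, needed for NK cell development but used by myeloid cells too, had signals of 51.6 in GPI-immunized and 21.5 in control-immunized splenocytes, a ratio of 2.40. It was just above the limit, through its GPI-immunized signal alone, and did not reach it after division by the median or quantile normalization.

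Among cytokines and their receptors, 9 of 12 genes reaching the limit had ratios below 1, against 42.4% of all genes. The count stayed 9 of 12 under the 3 other scalings, against 51.6% to 54.9% of all genes. On the deposited scale none was 2-fold lower or higher, and the median log2 ratio was -0.21. Whether this list departs from all genes was not tested. Cxcr6, a chemokine receptor of NK and T cell subsets, had signals of 37.4 in GPI-immunized and 69.0 in control-immunized splenocytes, a ratio of 0.542. Il12a, a subunit of interleukin-12, had a ratio of 0.577, and Xcl1, a chemokine that NK and CD8 T cells secrete, had one of 0.701. Il18rap, a chain of the interleukin-18 receptor, had a ratio of 1.60. Cxcr6 and Xcl1 were counted through their control signals alone, and Il18rap through its GPI-immunized signal alone, the other signal being under the limit. Of the ligands, 6 of 16 listed genes were measured and 1 reached the limit. Clec2d (Clr-b), the ligand of an inhibitory NKR-P1 receptor, had signals of 64.8 in GPI-immunized and 132.7 in control-immunized splenocytes, a ratio of 0.488. The NKG2D ligands and Qa-1 had no probe set with their symbol alone.

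**Figure D4:**
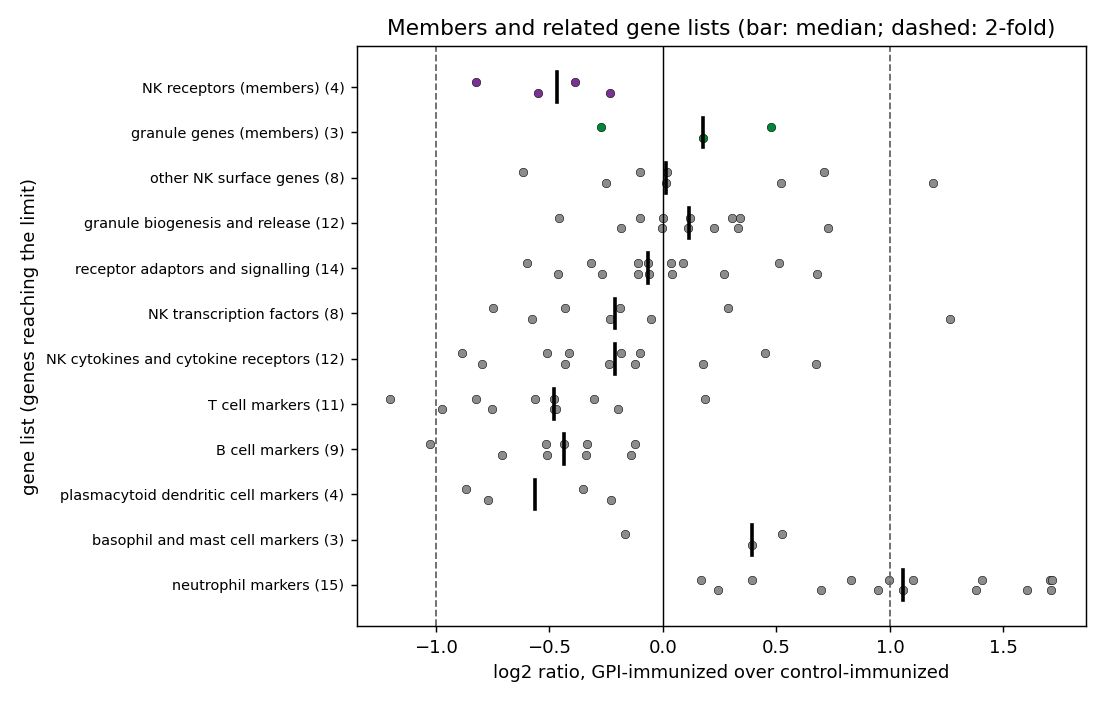
Log2 ratio (GPI-immunized over control-immunized) (horizontal axis) for genes reaching the limit in 12 lists (rows, number of genes in brackets), a point for each gene (1 array per group), with medians as bars and 2-fold ratios as dashed lines. The receptors (median -0.47) lie at the T cell (-0.48) and B cell markers (-0.44), the granule genes (0.18) further right, and the neutrophil markers (1.06) furthest right.

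Signals of other cell types differed in the same comparison. Of the measured markers, 9 of 10 B cell, 11 of 12 T cell and 15 of 15 neutrophil markers reached the limit. The exceptions were Lef1 of T cells and Pax5 of B cells. Pax5 had signals of 15.0 in GPI-immunized and 6.4 in control-immunized splenocytes, the latter not above the bacterial controls. Of 11 T cell markers reaching the limit 10 had ratios below 1, against 42.4% of all genes (median log2 ratio -0.48). The signals of the 12 measured summed to 2034.9 in GPI-immunized and 2870.3 in control-immunized splenocytes, a ratio of 0.709. Cd3e had a ratio of 0.509. Txk, at 0.436, was on the deposited scale the only T cell marker at least 2-fold lower, where 0.445% of all genes were. It was counted through its control signal alone. Under 3 other scalings 2 T cell markers were at least 2-fold lower, where 47 of 6959 genes (43 of 6961 under loess) were. The CD8 markers, of cells that share most of the members, had ratios below 1. These were 0.837 for Cd8a, 0.733 for its second probe set and, under the limit, 0.615 for Cd8b1. All 9 B cell markers reaching the limit had ratios below 1 (median -0.44). The signals of the 10 measured summed to 13160.7 in GPI-immunized and 17368.9 in control-immunized splenocytes. All 15 neutrophil markers had ratios above 1, against 57.5% of all genes (median 1.06, summed signal 52083.3 in GPI-immunized and 35377.7 in control-immunized splenocytes). On the deposited scale 8 of these were at least 2-fold higher, where 2.23% of all genes were. Some of them, such as Cxcr2, were counted through their GPI-immunized signal alone. The 4 plasmacytoid dendritic cell markers had ratios below 1 (median -0.56), and the basophil and mast cell markers had 2 ratios above 1 and 1 below (median 0.39). Of the innate-like T cell markers, 2 reached the limit, Blk (0.674) and Cd1d1 (0.498, and 0.697 from its second probe set). B cells express both genes. Beside these lists, the median log2 ratio was -0.47 for the receptors and 0.18 for the granule genes. No marker had a signal of 0. The part of these cell types in the ratios of receptors and granule genes was not tested.

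The scale of the arrays differed slightly. The deposited arrays had medians of 51.8 (GPI-immunized) and 48.65 (control-immunized). After each was divided by its median the log2 ratios were -0.91 for Klrd1, -0.64 for Klrg1, -0.47 for Klrk1, -0.32 for Ncr1, -0.36 for Gzma, 0.09 for Gzmb and 0.38 for Nkg7. No member reached 2-fold. Over all genes, 155 were at least 2-fold higher and 31 at least 2-fold lower on the deposited scale, so that 83.3% of these were higher, and division by the median or quantile normalization made this share 70.25%.

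**Figure D5:**
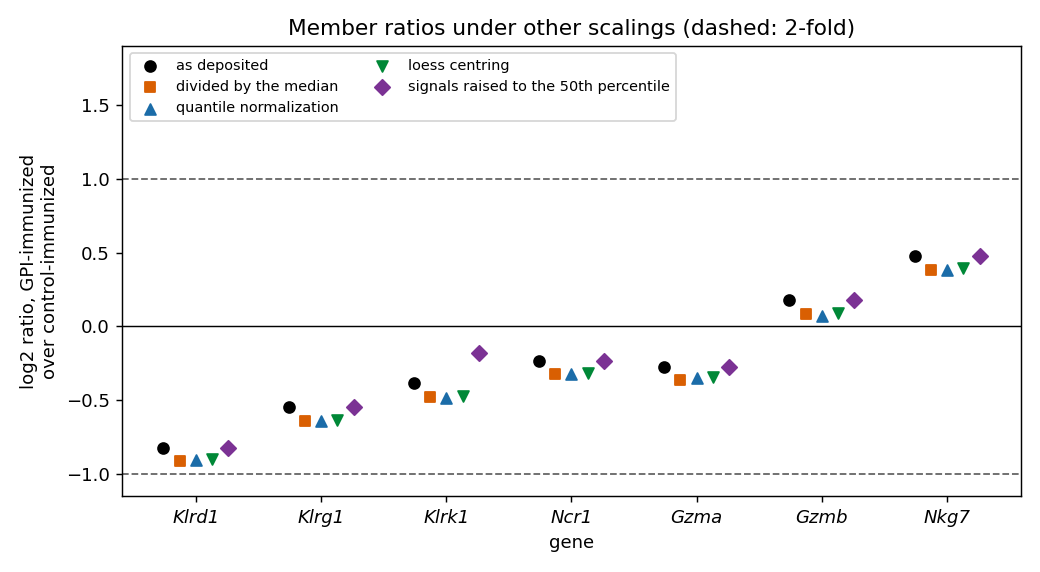
Log2 ratio (GPI-immunized over control-immunized) (vertical axis) of the 7 genes reaching the limit under the deposited scale and 4 alternatives, 1 array per group, with 2-fold ratios as dashed lines. The 4 receptors and Gzma stay below 0 and Gzmb and Nkg7 above, and Klrk1 moves closest to 0 (-0.18) with low signals raised to the 50th percentile.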

How the data were processed

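The authors deposited intensities on a linear scale, 1 signal per probe set, from 1 Affymetrix mouse GeneChip per group, analysed with what the paper calls gene expression software. How probes were summarized and arrays scaled, and which were called detected, was not stated in the sources used here. The labels name a whole-transcript cDNA kit and the paper biotinylated cRNA.

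Of 22626 probe sets besides 64 controls, 20380 have 1 symbol in the platform annotation, 691 several and 1555 none. A gene (12393 in all) was represented by its brightest probe set (mean log2 signal). Ratios were taken without further scaling, with signals of 0 set to 0.1. Genes counted where the higher signal reached the 50th percentile (50.2), with ratios of 2 or more called higher and of 0.5 or less lower. With 1 array per group there was no test, and the number of arrays limits the precision. The steps were tested on simulated data, where the changed genes lay well above the limit and differed by more than 2-fold. Smaller ratios, such as those of the members, were not covered. Members and lists were chosen with earlier results of these data known. The text names all members, their direct partners, and of each list up to 4 genes with ratios furthest from 1, not all of which are printed. A few dim genes are also named as exceptions in their lists. Promoter windows were cut from RefSeq sequences of GRCm38.p6, 250 bases before the start, and motifs were searched on both strands. Alternatives were 3 other scalings (loess with a fraction of 0.3), raised low signals, other choices of probe sets, filters and fold thresholds. Python 3.11.15, numpy 2.4.6, pandas 2.3.3, statsmodels 0.14.6 and matplotlib 3.10.9 were used.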

Additional observations from a re-analysis of the deposited data

How the results depend on the processing

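The counts of receptors and of granule genes at least 2-fold higher or lower were 0 under each alternative at that threshold, and also at 3-fold. At 1.5-fold, 1 receptor (Klrd1) was lower on the deposited scale, and Klrg1 also passed under division by the median (log2 ratio -0.64), quantile normalization (-0.64) and loess (-0.63). With the filter at the 75th percentile, Klrd1 alone remained of the receptors (median log2 ratio -0.82) and Gzma alone of the granule genes (-0.27). The 4 receptors and Gzma had log2 ratios below 0, and Gzmb and Nkg7 above 0, under each alternative that gave them a value. Without probe sets of several transcripts, Klrk1 and Gzma had none. Prf1 moved to 0 with signals raised to the 50th percentile. Its sign turned when its probe sets were averaged or the one of several transcripts was left out, and no value is given for either, since both rest on the probe set not above the bacterial controls. Filters do not change the ratio of a single gene.

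Over all genes, the 31 at least 2-fold lower became 47 under division by the median, 47 under quantile normalization, 11 with signals raised to the 50th percentile, 72 averaged over probe sets, 1095 unfiltered, 539 and 5 with the limit at the 25th and the 75th percentile, 225 at 1.5-fold and 3 at 3-fold. The 155 at least 2-fold higher became 1260 unfiltered, 711 and 70 with these limits, 490 at 1.5-fold and 35 at 3-fold. With 1 array per group, no difference between mice could be set against any ratio.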

Other observations

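Klrd1 and Klrk1 lie side by side on chromosome 6, within a cluster that also holds C-type lectin genes of other cells. From Klrb1a to Klra2, in the gene order of RefSeq, 48 protein-coding genes were listed, 23 were measured and 8 reached the limit, a span chosen after the values were seen. Ratios were below 1 for Clec2d (0.488), Klrc1 (0.531), Klrd1 (0.565) and Klrk1 (0.766), and above 1 for Gabarapl1 (1.36), Clec1b (1.37), Klra17 (1.39) and Clec7a (1.95). Clec7a encodes dectin-1, a receptor of myeloid cells for fungal glucans, with signals of 646.0 in GPI-immunized and 331.0 in control-immunized splenocytes. Clec1b encodes CLEC-2, a receptor of platelets, and Gabarapl1 an autophagy protein.

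Granzyme B is encoded in a chromosome 14 cluster of serine proteases that different leukocytes use. From Mcpt8 to Gzmb, 9 of 9 genes were measured and 3 reached the limit. Ctsg (cathepsin G), a neutrophil granule protease, had signals of 1126.3 in GPI-immunized and 370.4 in control-immunized splenocytes, a ratio of 3.04. Mcpt8, a basophil protease, had signals of 124.9 in GPI-immunized and 86.9 in control-immunized splenocytes, a ratio of 1.44, and Gzmb had a ratio of 1.13. The 6 granzyme genes between Ctsg and Gzmb were at the level of the bacterial controls on both arrays.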
